A study of Homo sapiens with 4 samples.

Results

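The 10 genes described here are targets of YAP and TAZ, the transcriptional coactivators that the Hippo kinase cascade holds in the cytoplasm: CCN1, CCN2, ANKRD1, AXL, AJUBA, CRIM1, NUAK2, ASAP1, MYOF and F3. They were taken by name from a list of known targets, with earlier results of these data known. All 10 were found among the 25609 genes of the deposited table and passed the expression filter that left 16590 genes for testing. RNA was sequenced from HK-2, an established cell line that derives from proximal tubule epithelium of the human kidney and carries papillomavirus oncogenes. The genotype is given as wild type. Cells were deprived of serum for 24 h, and the treated group (2 libraries) then received transforming growth factor β1 (TGF-β1) at 20 ng/mL for 24 h. The uridine analogue 4-thiouridine was present at 100 μM for the last 20 h. The same treatment text stands on the control samples (2 libraries), which are assumed here to differ from the treated ones by TGF-β1 alone. Nothing in the labels says that replicates came from separate cultures, and p-values therefore reflect the spread between libraries that may be technical replicates.

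In the Hippo pathway, the kinases MST1 and MST2 (genes STK4 and STK3) activate LATS1 and LATS2, which phosphorylate YAP and TAZ and so keep them out of the nucleus. When the kinases are inactive, as in spread or mechanically stretched cells, YAP and TAZ enter the nucleus, bind TEAD transcription factors and raise transcription of genes for matrix signalling, adhesion and the cytoskeleton. In kidney tubules the pathway is studied for its part in injury and fibrosis, where it meets TGF-β signalling through the SMAD factors, and CCN2 is known as a target of both.

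Recovered whole reads summed to between 3346018 and 5472053 per library, with control replicate 1 the shallowest. Treatment showed in its usual targets: SMAD7 was 4.34-fold and JUNB 13.5-fold higher with TGF-β1, and 8 of 10 listed SMAD targets passed the test upwards. Of 14 tubular markers 9 passed the expression filter, of which 3 rose and 4 fell by limma (3 and 5 by voom). Of 16520 genes, voom called 1799 higher and 1594 lower (9.65%). Over all genes tested, limma called 6.12% higher and 3.0% lower. The tubular genes CUBN, AQP1 and ANPEP had 1 to 5 reads per library. GGT1, from the same list, had 294 to 425 reads and was not called (adjusted p = 0.363, limma). KRT19, PAX8, CDH16 and EPCAM fell (log2 fold changes -1.52, -1.50, -0.99 and -0.89), about as much as the falling target genes, and KRT8, CDH2 and KRT18 rose (1.19, 1.17 and 0.43). KRT18 did not pass under any of the 4 rescalings of the RPKM values (adjusted p = 0.0576 to 0.231, limma). By voom it passed (adjusted p = 8.29e-05). The calls of CDH16 and KRT18 were lost without control replicate 1 (adjusted p = 0.0640 and 0.1002, limma), control replicate 2 (0.0802 and 0.0828) or TGF-β1 replicate 2 (0.106 and 0.124), and that of CDH2 without TGF-β1 replicate 2 (0.0555). Summed RPKM of the tubular list ran from 378 to 401 in the controls and from 418 to 455 with TGF-β1. KRT8 (mean 76.3 to 175 RPKM) and KRT18 (110 to 149 RPKM) made up much of that sum, while 6 of the 9 tested markers had negative log2 fold changes. CDH1 was among the 6, on 14 to 27 reads (log2 fold change -0.59, adjusted p = 0.251, limma). By voom CDH1 was called lower (adjusted p = 0.0432). Fibroblast, endothelial and leukocyte markers were mostly at or near 0: COL1A2, VWF and CDH5 had 0 reads in all 4 libraries and LYZ at most 1. The exceptions were LUM and RGS5, EGFL7, and CD14 and CSF1R, the last of which rose. Summed RPKM in the controls and with TGF-β1 ran from 14.0 to 15.4 and from 7.83 to 10.5 for fibroblast markers, from 23.6 to 26.5 and from 27.3 to 27.5 for endothelial ones, and from 3.64 to 4.20 and from 11.8 to 12.1 for leukocyte ones. Their part in the results was not tested.

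With TGF-β1, 6 of the 10 target genes fell and 0 rose by limma, a linear model fitted across all genes, at an adjusted p below 0.05 (Benjamini-Hochberg). The genes that fell were CCN1, AXL, AJUBA, NUAK2, MYOF and F3, each to between 0.377 and 0.527 times its control mean, while 4 tubular markers fell and 3 rose in the same libraries. In bulk RNA such as this, fewer expressing cells and less RNA per cell cannot be told apart. Lower calls made up 3.0% of all genes tested, higher calls 6.12% and calls in either direction 9.12%. Because the 10 genes were chosen with earlier results of these data known, setting them beside these shares is no independent test. CCN2 and ANKRD1 had higher values with TGF-β1 and did not pass, although both had an unadjusted p below 0.05. CRIM1 and ASAP1 did not pass either. Limma's voom on recovered reads called 1 member higher (CCN2) and 7 lower (the 6 and CRIM1). Of 16520 genes, voom called 1799 higher and 1594 lower (9.65%). The median log2 fold change of the 10 genes was -0.91, against 0.03 over all genes tested. In all 10 the libraries of the groups did not overlap, 8 of them lower and 2 higher with TGF-β1. Of all genes tested, 54.1% were so separated, 24.6% lower and 29.5% higher. The genes took 0.173% and 0.185% of recovered reads in control libraries, against 0.0875% and 0.0960% with TGF-β1.

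Those values rest on the authors' scaling between libraries, under which 1015 of all genes tested were called higher and 498 lower. Scaled instead by total recovered reads, 653 were higher and 893 lower, and the median log2 fold change of all genes moved by -0.16, from 0.03 to -0.13. The split was 697 higher and 687 lower after quantile normalisation, and 1799 and 1594 by voom. The 6 falling genes passed the test under every one of these scalings, and CCN2 and ANKRD1 stayed above 0. Without a variance trend in the model, 2 of the 6 calls remained (AJUBA and NUAK2).

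**Figure D1:**
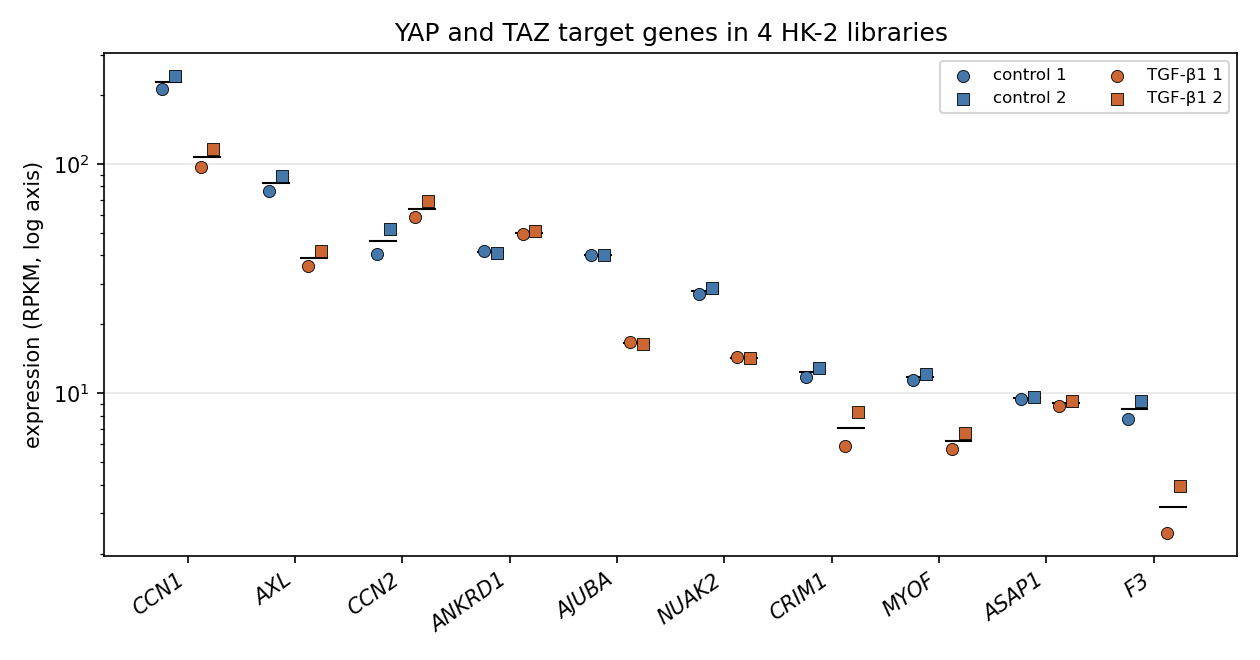
Expression of the 10 target genes as RPKM on a log axis, with 1 point per library (blue for control, orange for TGF-β1, circles for replicate 1, squares for replicate 2) and a bar at each group mean. CCN1 and AXL head the control samples, and CCN2 and ANKRD1 lie above AXL with TGF-β1.

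**Figure D2:**
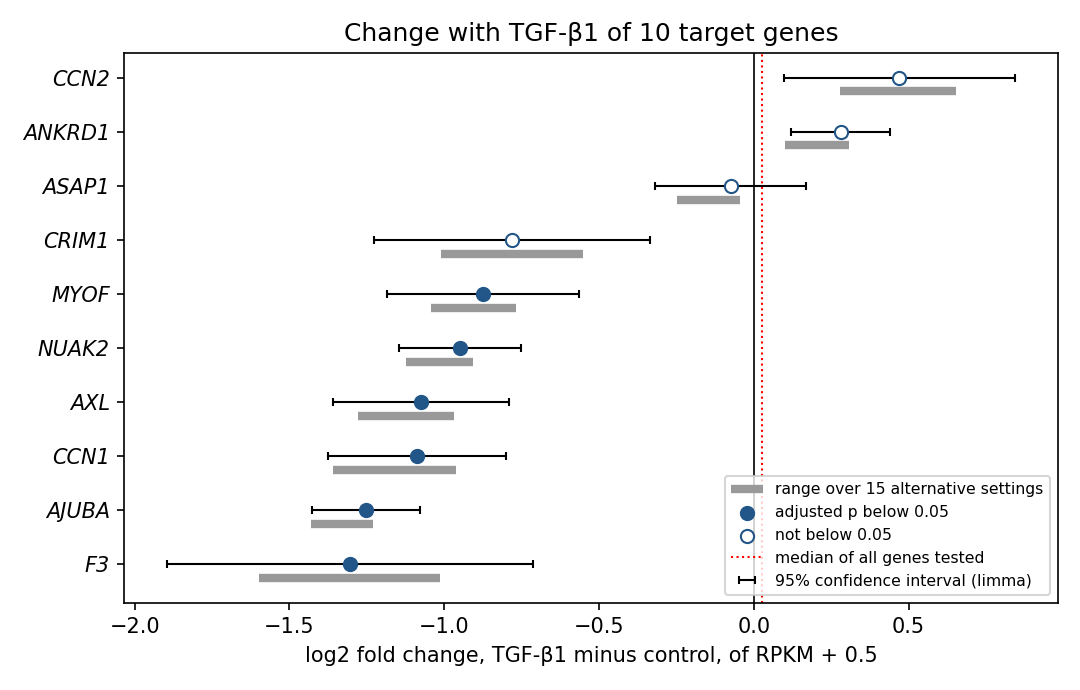
Log2 fold change of each target gene (TGF-β1 minus control, on RPKM + 0.5) with its 95% confidence interval from limma, filled where the adjusted p is below 0.05; grey bars give the range over 15 alternative settings. The 6 filled points lie between -1.31 and -0.88, and ASAP1 lies at -0.08.

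CCN1 and CCN2 are secreted matricellular proteins of the same family, which bind integrins and heparan sulphate, and are the most widely used readouts of YAP and TAZ activity. CCN1 (ENSG00000142871.16, hg38 chromosome 1, 85580761 to 85583962, plus strand) measured 212 and 243 RPKM in the controls and 97.8 and 116 RPKM with TGF-β1. Every control library lay above both treated ones, and the gene fell 2.13-fold, from 228 ± 22 to 107 ± 13 RPKM (SD, n = 2 per group). On the log2 scale the fall came to -1.09 (standard error 0.11, adjusted p = 0.00896, limma). The call rests on 997 to 2804 reads per library, the most of any of the 10 genes.

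CCN2 (ENSG00000118523.5, chromosome 6, 131948176 to 131951373, minus strand) did not share that direction. It measured 40.4 and 52.1 RPKM in the controls and 58.8 and 69.1 RPKM with TGF-β1, so the treated libraries were the higher ones but the gap between the groups was smaller than the spread within either. The ratio of means was 1.38, and the log2 fold change of 0.47 had a 95% interval from 0.10 to 0.84 (adjusted p = 0.125, limma). CCN2 passed when control replicate 2 was left out (log2 fold change 0.65, adjusted p = 0.0402, range over all settings 0.00185 to 0.348). A gene on the opposite strand overlaps its exons and had 0 to 2 reads per library, and whether the counting used strand is not given. Exons of AJUBA overlap those of the protein-coding AL132780.3 on the same strand, and exons of AXL and of CRIM1 overlap antisense genes. These 3 overlapping genes were not analysed here, so how reads in the shared stretches were assigned is unknown.

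Because both genes were read in the same libraries, their ratio does not depend on scaling between libraries. In control libraries CCN2 stood at 0.191 and 0.214 times the CCN1 level, and in TGF-β1 libraries at 0.601 and 0.594 times, a 2.95-fold shift in the ratio. The 4 ratios fall into 2 narrow pairs with a wide gap between them, but an exact two-sided permutation test of 2 libraries against 2 cannot give a p below 0.333, and no other test of the ratio was run. CCN3, a relative that opposes CCN2 in several settings, measured 18.7 and 16.5 RPKM in the controls and 13.1 and 13.2 RPKM with TGF-β1 (log2 fold change -0.40, adjusted p = 0.0684, limma). CCN5 had 2 to 9 reads per library and CCN4 had 0 in all 4. CCN6 was not analysed here.

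ANKRD1 and AJUBA act inside the cell. ANKRD1 (ENSG00000148677.6, chromosome 10, 90912096 to 90921276, minus strand) encodes an ankyrin-repeat cofactor of the sarcomere and nucleus that responds to stretch. It measured 41.7 and 41.0 RPKM in the controls and 49.4 and 51.2 RPKM with TGF-β1. The groups did not overlap and the spread within each was small, but the difference was also small, at 1.22-fold. The log2 fold change of 0.28 had a 95% interval from 0.12 to 0.44 (adjusted p = 0.0590, limma). This is close to the threshold, and the gene passed when testing was limited to genes averaging 2 RPKM or more (adjusted p = 0.0471, range over all settings 0.0471 to 0.363). Relative to total recovered reads the log2 fold change was 0.10, where the median gene stood at -0.13.

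AJUBA (ENSG00000129474.15, chromosome 14, 22971174 to 22982642, minus strand) encodes a LIM-domain scaffold that binds and restrains LATS kinases, so it is a regulator of the pathway as well as a target. It measured 40.1 and 40.3 RPKM in the controls and 16.7 and 16.5 RPKM with TGF-β1. Replicates agreed almost exactly and the gene fell 2.42-fold, with a log2 fold change of -1.25 and a standard error of 0.07 (adjusted p = 0.00219, limma, the smallest among the 10). In the controls AJUBA and ANKRD1 stood at nearly the same level per length, with ANKRD1 at 1.04 and 1.02 times AJUBA. With TGF-β1 that ratio was 2.96 and 3.11.

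**Figure D3:**
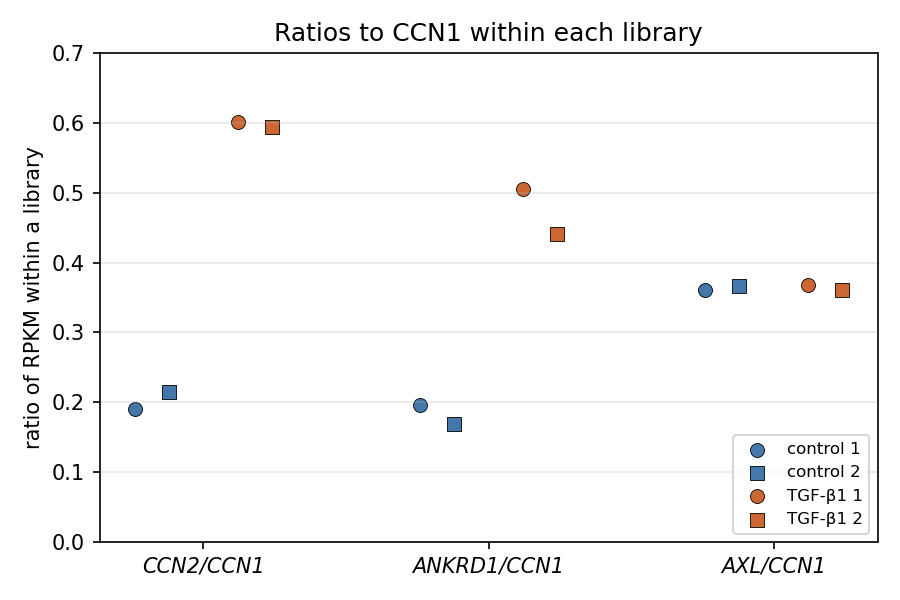
Ratio of the RPKM of CCN2, ANKRD1 and AXL to that of CCN1 within each library (linear axis from 0, 1 point per library, colours as above). The CCN2 and ANKRD1 ratios lie at 0.169 to 0.214 in the controls and at 0.441 to 0.601 with TGF-β1, whereas the AXL ratio lies at 0.360 to 0.368 in all 4 libraries.

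The sequences just before the start of these genes, where TEAD and SMAD factors can bind, are shown for 4 members. The 4 were picked because CCN2 and ANKRD1 had higher values with TGF-β1, although neither was called, whereas NUAK2 and F3 fell. AXL, AJUBA and MYOF also fell, and their windows are not printed. Windows run from 250 bases before to 50 bases after the RefSeq start on GRCh38.p14 and are printed 5′ to 3′ on the strand of the gene. Capitals mark exact matches on either strand to GGAATG (the core word of TEAD binding), TGANTCA (AP-1, the JUN and FOS dimer) and CAGAC (SMAD); adjacent words run together where they share a base, as SMAD and TEAD words do at 1 base in ANKRD1. The windows lie at chr6:131951323-131951622 (CCN2), chr10:90921038-90921337 (ANKRD1), chr1:205321696-205321995 (NUAK2) and chr1:94541710-94542009 (F3), all on the minus strand.
CCN2: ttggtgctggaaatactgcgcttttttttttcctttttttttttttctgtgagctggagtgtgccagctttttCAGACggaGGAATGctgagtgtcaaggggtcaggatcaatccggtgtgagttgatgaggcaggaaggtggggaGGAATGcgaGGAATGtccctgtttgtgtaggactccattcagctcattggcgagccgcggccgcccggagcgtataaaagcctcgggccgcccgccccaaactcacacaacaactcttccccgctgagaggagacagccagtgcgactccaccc
ANKRD1: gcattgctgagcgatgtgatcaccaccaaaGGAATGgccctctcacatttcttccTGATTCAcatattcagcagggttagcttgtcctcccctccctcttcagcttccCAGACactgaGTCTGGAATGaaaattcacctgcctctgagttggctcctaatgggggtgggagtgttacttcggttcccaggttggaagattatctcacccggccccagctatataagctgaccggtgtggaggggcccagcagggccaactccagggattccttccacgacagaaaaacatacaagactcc
NUAK2: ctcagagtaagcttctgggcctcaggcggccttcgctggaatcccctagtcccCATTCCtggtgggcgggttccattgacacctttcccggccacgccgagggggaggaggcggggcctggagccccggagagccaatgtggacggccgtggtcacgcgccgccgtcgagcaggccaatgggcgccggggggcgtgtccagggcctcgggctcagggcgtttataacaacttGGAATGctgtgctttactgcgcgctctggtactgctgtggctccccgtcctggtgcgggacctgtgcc
F3: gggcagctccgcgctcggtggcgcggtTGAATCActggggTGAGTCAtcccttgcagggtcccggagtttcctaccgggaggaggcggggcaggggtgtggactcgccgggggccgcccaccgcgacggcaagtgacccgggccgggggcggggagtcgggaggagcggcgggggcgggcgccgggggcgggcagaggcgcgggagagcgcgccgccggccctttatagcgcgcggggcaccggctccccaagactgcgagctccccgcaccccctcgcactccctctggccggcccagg

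CCN2 held 3 TEAD words, whose first bases lie 169, 104 and 95 bases before the start, and 1 SMAD word at 177. At least 3 TEAD words occur in 0.128% of the 35116 promoter windows of the same length, and at least 1 in 14.0%. ANKRD1 held 2 TEAD words, 220 and 128 bases before the start, with 1 AP-1 word at 195 and SMAD words at 142 and 132. NUAK2 also held 2 TEAD words, at 197 and 18, and no AP-1 or SMAD word. At least 2 TEAD words occur in 1.37% of windows. F3 held 2 AP-1 words, 223 and 210 bases before the start, as 0.515% of windows do, and no TEAD word. RefSeq windows were used for 7 of the 10 genes (9 windows, since AXL and AJUBA have 2 starts each). Of the 7 genes 5 held a TEAD word in some window, against 16.7% of all genes with windows, 5 a SMAD word (49.99% of all genes) and 2 an AP-1 word (9.37%). AXL, AJUBA and MYOF, which fell, held SMAD words, as CCN2 and ANKRD1 did. The genes were listed as known targets of YAP and TAZ, which bind TEAD factors. A surplus of TEAD words, in CCN2 or in the 7, is therefore no independent result. MYOF and F3 had no TEAD word, and no window was used for CCN1, CRIM1 and ASAP1. A match is a string of letters and not a measured binding site, and sequence outside these windows was not searched.

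**Figure D4:**
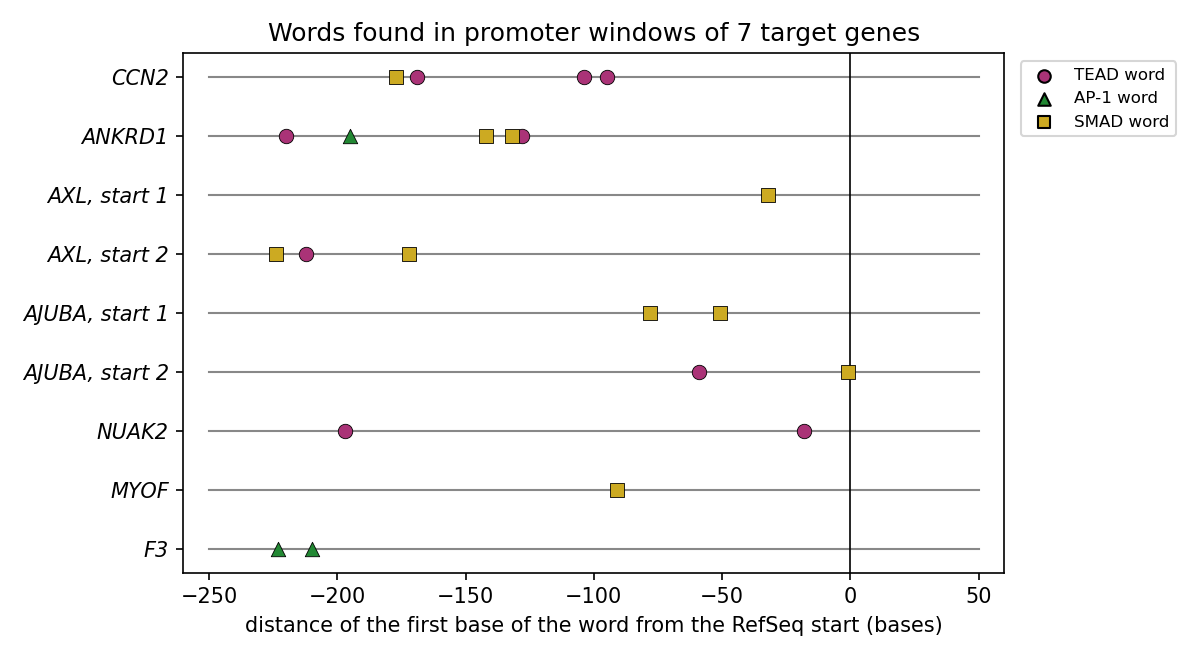
Position of TEAD, AP-1 and SMAD words in the 9 promoter windows of 7 target genes, as the distance in bases of the first base of each word from the RefSeq start (black line at 0). CCN2 shows 3 TEAD words, ANKRD1 and NUAK2 show 2 each, and MYOF, F3 and the first starts of AXL and AJUBA show no TEAD word.

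Of the 4 members at the cell surface, AXL, F3 and MYOF fell. AXL (ENSG00000167601.11, chromosome 19, 41219203 to 41261766, plus strand) encodes a receptor tyrosine kinase for the ligand GAS6. It measured 76.5 and 88.9 RPKM in the controls and 36.0 and 41.9 RPKM with TGF-β1. The fall was 2.12-fold, with a log2 fold change of -1.08 and a standard error of 0.11 (adjusted p = 0.00897, limma). AXL followed CCN1 closely, a comparison chosen after the values were seen: its ratio to CCN1 was 0.361, 0.366, 0.368 and 0.360 in control 1, control 2, TGF-β1 1 and TGF-β1 2. The related receptors MERTK (log2 fold change -0.50, adjusted p = 0.268) and TYRO3 (0.11, adjusted p = 0.722) did not pass in limma. GAS6 rose 1.47-fold, from 7.83 ± 0.77 to 11.5 ± 0.031 RPKM, with an adjusted p of 0.0498 (limma) that missed the threshold whichever library was left out and under every rescaling of the RPKM values.

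F3 (ENSG00000117525.13, chromosome 1, 94529225 to 94541800, minus strand) encodes tissue factor, the cell-surface starter of coagulation. It was the lowest of the 10, at 7.74 and 9.29 RPKM in the controls and 2.47 and 3.95 RPKM with TGF-β1. The fall was 2.65-fold, the largest ratio among the 10, with a log2 fold change of -1.31 and a wide standard error of 0.23 (adjusted p = 0.0332, limma). The RPKM values rest on 75 and 125 control reads and on 29 and 53 treated reads, where the exact Poisson 95% interval of the 29 reads is 19.4 to 41.6 (counting error only). In limma the gene no longer passed once control replicate 1 (adjusted p = 0.0532), control replicate 2 (0.0792) or TGF-β1 replicate 1 (0.0540) was left out. TFPI2, a Kunitz-type protease inhibitor related to the tissue factor pathway inhibitor, rose 4.85-fold from 25.9 ± 8.0 to 125 ± 5.3 RPKM (adjusted p = 0.00630, limma), so its ratio to F3 went from 2.61 and 3.39 to 49.2 and 32.7. The pathway inhibitor itself, TFPI, did not pass (log2 fold change -0.52, adjusted p = 0.166, limma).

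MYOF (ENSG00000138119.16, chromosome 10, 93306429 to 93482317, minus strand) encodes myoferlin, a C2-domain protein of membrane fusion and repair. It measured 11.4 and 12.2 RPKM in the controls and 5.72 and 6.73 RPKM with TGF-β1, a 1.90-fold fall (log2 fold change -0.88, standard error 0.12, adjusted p = 0.0186, limma). Without TGF-β1 replicate 1 the adjusted p was 0.0613. Its paralogue dysferlin, DYSF, was higher in each treated library, at 4.20 and 3.72 against 4.89 and 6.09 RPKM, and did not pass (adjusted p = 0.196, limma). CRIM1 (ENSG00000150938.9, chromosome 2, 36355926 to 36551135, plus strand), a transmembrane protein that binds bone morphogenetic proteins, measured 11.8 and 13.0 RPKM in the controls and 5.90 and 8.27 RPKM with TGF-β1. Relative to their mean, the treated libraries differed from each other more than in any other member but F3, and the gene missed the threshold at a log2 fold change of -0.78 (95% confidence interval -1.23 to -0.34, adjusted p = 0.0597, limma). CRIM1 passed in limma with scaling by total recovered reads (-0.95, adjusted p = 0.0286), upper-quartile scaling (0.0474) and the replicate block (0.0403). It also passed when only genes averaging 2 RPKM or more were tested (adjusted p = 0.0383, limma) and by voom (4.96e-07). Without TGF-β1 replicate 2 the log2 fold change was -1.01. Over all settings the adjusted p ranged from 4.96e-07 to 0.145.

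The remaining members are signalling enzymes or their adaptors. NUAK2 (ENSG00000163545.8, chromosome 1, 205302059 to 205321791, minus strand) encodes a kinase related to AMPK that promotes actomyosin contraction and feeds back to inhibit LATS. It measured 27.3 and 29 RPKM in the controls and 14.4 and 14.3 RPKM with TGF-β1. The fall was 1.96-fold (log2 fold change -0.95, standard error 0.08, adjusted p = 0.00457, limma) and passed under all 15 alternative settings, as did that of AJUBA. Its paralogue NUAK1 rose 3.23-fold, from 3.39 and 2.66 to 8.77 and 10.8 RPKM (adjusted p = 0.0106, limma). The level of NUAK1 was thus 0.124 and 0.0917 times that of NUAK2 in control libraries and 0.610 and 0.754 times in TGF-β1 libraries, where NUAK2 still had the higher level per length.

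ASAP1 (ENSG00000153317.14, chromosome 8, minus strand), an activator of ARF GTPase hydrolysis at focal adhesions, had nearly equal values in all libraries, at 9.49 and 9.62 RPKM in the controls and 8.85 and 9.25 RPKM with TGF-β1. The log2 fold change of -0.08 had a 95% interval from -0.32 to 0.17 (adjusted p = 0.689, limma). Falls of the size seen in AJUBA or CCN1 lie outside this interval, which holds for the authors' scaling and the spread between these libraries only. With scaling by total recovered reads the log2 fold change of ASAP1 was -0.25. The paralogues ASAP2 (log2 fold change 0.42, adjusted p = 0.173) and ASAP3 (-0.16, adjusted p = 0.777) did not pass in limma.

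The relatives were a mixed group. Of 20 paralogues, ligands and inhibitors listed, 16 were tested, of which 5 rose and 0 fell by limma. Voom called 7 higher and 2 lower, and of 16520 genes it called 1799 higher and 1594 lower (9.65%). In limma 2 of those lower had an unadjusted p below 0.05, and the share of all genes at that level was not computed. Over all genes tested, limma called 6.12% higher and 3.0% lower. ZYX, the zyxin LIM protein of focal adhesions from the wider family of AJUBA, rose 2.004-fold from 89.7 and 82.7 to 164 and 182 RPKM (adjusted p = 0.00453, limma). Its closer relatives LIMD1 and WTIP did not pass (adjusted p = 0.817 and 0.572, limma). ANKRD2, the nearest relative of ANKRD1, rose 1.75-fold from 7.01 and 6.96 to 12.9 and 11.6 RPKM (adjusted p = 0.0172, limma), on 34 to 79 reads. It no longer passed once TGF-β1 replicate 1 (adjusted p = 0.0856) or TGF-β1 replicate 2 (0.0631) was left out.

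**Figure D5:**
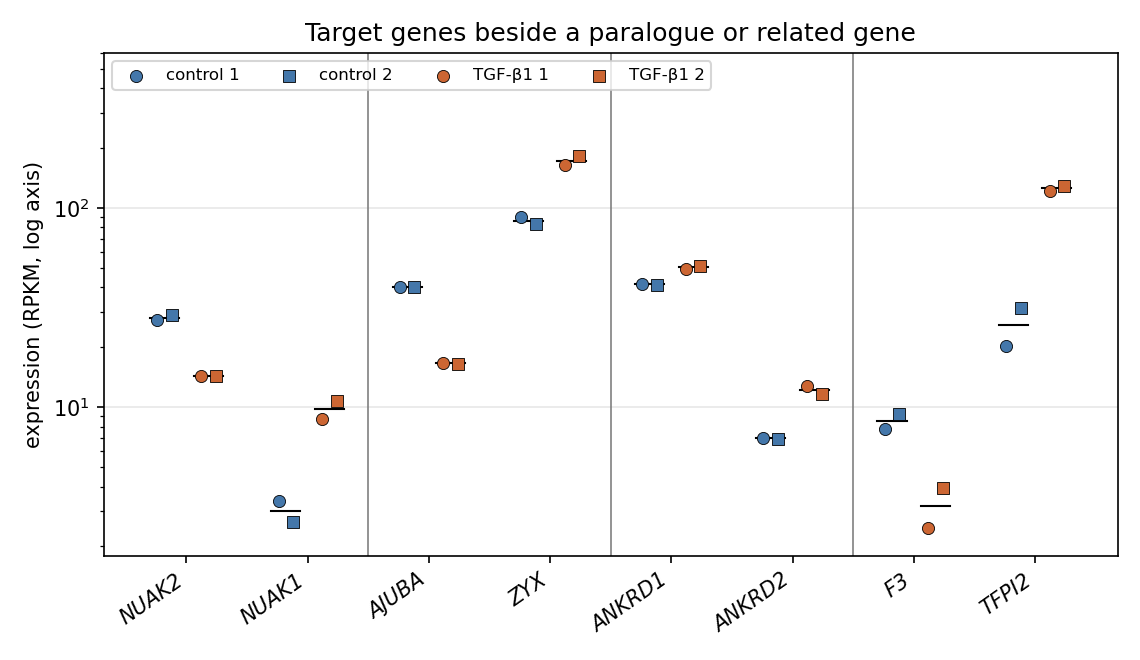
Expression as RPKM on a log axis of 4 target genes, each beside a related gene, with 1 point per library and a bar at each group mean. NUAK1, ZYX, ANKRD2 and TFPI2 are higher in both TGF-β1 libraries, while NUAK2, AJUBA and F3 are lower in both.

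Levels per length also changed order. In the controls CCN1 (228 RPKM) and AXL (82.7 RPKM) led, followed by CCN2 (46.2 RPKM), ANKRD1 (41.3 RPKM) and AJUBA (40.2 RPKM). Of neighbours in that order, only CCN2 with ANKRD1 and CRIM1 with MYOF had overlapping ranges. With TGF-β1 the order was CCN1 (107 RPKM), CCN2 (64.0 RPKM), ANKRD1 (50.3 RPKM), AXL (39.0 RPKM) and AJUBA (16.6 RPKM), and only CRIM1 and MYOF overlapped. CCN1 thus stayed the highest and F3 the lowest. Replicate 1 tended to be the lower library for these genes: control replicate 1 was the lower control in 9 of 10 members (55.7% of all genes tested) and TGF-β1 replicate 1 the lower treated library in 8 of 10 (48.9%).

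Among 13 further targets of YAP and TAZ, in a list written down with earlier results of these data known, 11 were tested. Of these, 1 rose and 2 fell. For comparison, limma called 6.12% of all genes tested higher and 3.0% lower. The median log2 fold change of the 11 was -0.15, against -0.91 for the 10 genes and 0.03 for all genes tested. IGFBP3, which binds insulin-like growth factors, rose 2.14-fold from 18 and 19.1 to 39.3 and 40.2 RPKM (adjusted p = 0.00317, limma). GADD45A, a stress-response gene, fell 2.07-fold from 24.7 and 23.2 to 11.6 and 11.5 RPKM (adjusted p = 0.00453, limma). AMOTL2, an angiomotin that binds YAP, fell 1.36-fold from 66.1 and 66.2 to 46.1 and 51.3 RPKM (adjusted p = 0.0300, limma), a call lost whichever library was left out (adjusted p = 0.0558 to 0.108). RBMS3 was below the expression filter, and FOXF2 was not analysed here.

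Of 30 components of the pathway, all of which were tested and 3 of which (LATS2, AMOTL2 and PTPN14) are also among the further targets, 2 rose and 2 fell, with a median log2 fold change of -0.04. The shares called over all genes tested were 6.12% higher and 3.0% lower (limma). Neither effector passed in limma. YAP1 measured 8.41 and 9.61 RPKM in the controls and 8.69 and 8.69 RPKM with TGF-β1 (log2 fold change -0.05, 95% confidence interval -0.33 to 0.24, adjusted p = 0.846, limma). WWTR1, the gene for TAZ, measured 34 and 40.02 RPKM in the controls and 44.7 and 46.5 RPKM with TGF-β1 (0.30, 95% confidence interval 0.06 to 0.55, adjusted p = 0.132, limma). Its groups did not overlap, its unadjusted p was 0.0251, and voom called it higher (adjusted p = 0.0124). None of TEAD1, TEAD2, TEAD3 and TEAD4 passed in limma (adjusted p = 0.335, 0.0901, 0.413 and 0.142), although TEAD2 and TEAD4 had an unadjusted p below 0.05. FRMD6, the FERM-domain protein of the series title, rose from 6.91 and 7.40 to 40.4 and 41.8 RPKM, and MAP4K4, a kinase that can act on LATS, rose 2.695-fold from 9.41 and 10.5 to 25.9 and 27.8 RPKM (adjusted p = 0.000914 and 0.00319, limma). The component that fell besides AMOTL2 was WWC1, known as KIBRA, from 9.64 and 10.4 to 5.38 and 6.52 RPKM (adjusted p = 0.0382, limma), and its call was lost whichever library was left out (adjusted p = 0.0701 to 0.130). RNA levels alone were measured here, and neither the phosphorylation nor the location of YAP and TAZ was.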

How the data were processed

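TRIzol extraction and a directional NEBNext library kit were used, per the labels' protocols. The authors deposited 1 table of RPKM values (reads per exon length and library size) for 4 libraries. STAR 2.7.1a, bcl2fastq 2.20.0.422, DESeq2 and hg38 stand in the submitters' processing notes without roles; annotation, strand setting and RPKM tool are not given in the sources used. Symbols were matched for 25312 of 25609 genes. Exon lengths and hg38 positions came from GENCODE release 29.

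Multiplied by exon length, values fell on whole reads plus 0.5 (tolerance 0.01 read) for all 23853 genes of the same GENCODE version, and lengths of 1636 more were inferred, so reads are exact for the 10 members. The authors' library sizes were 1.01, 0.976, 0.893 and 0.861 times the recovered totals (control 1 and 2, TGF-β1 1 and 2). Genes averaging 0.5 RPKM or more entered limma 3.58.1 (R 4.3.3) as log2(RPKM + 0.5), with a variance trend. The added 0.5 understates changes of low genes. P values were adjusted over all genes tested, and the procedure was tested on simulated data. Folds are ratios of mean RPKM, and ± is an SD of 2 libraries. Named genes were all 10 members, their relatives, in each other list up to 3 called genes in each direction by smallest p, the treatment checks SMAD7 and JUNB (another is not reported here), and FRMD6, YAP1 and WWTR1. TEAD, marker and other relatives' values complete a list. The members and lists were chosen with earlier results of these data known. Alternatives were 2 pseudocounts, 2 filters, 4 scalings, no variance trend, voom on recovered reads, a replicate block and leaving out each library. Promoter windows came from RefSeq on GRCh38.p14.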

Additional observations from a re-analysis of the deposited data

How the results depend on the processing

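Depth limits F3 most, with 29 to 125 reads, and 2 libraries per group leave 2 residual degrees of freedom. Over 15 alternative settings no member changed sign. The fall of AJUBA and of NUAK2 passed in all 15, CCN1 and AXL failed only without the variance trend (adjusted p = 0.0642 and 0.0635), MYOF failed in 2 settings and F3 in 5. The count of members called lower was 6, ranged from 4 to 7 when each library was left out, and was 2 without the variance trend. The count called higher was 0 and ranged from 0 to 1 on leaving out libraries. It was 1 when only genes averaging 2 RPKM or more were tested, 1 by voom and 1 with the replicate block.

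Of all genes, 1015 were called higher and 498 lower. Leaving out each library gave 361 to 886 higher and 164 to 317 lower. Scaling by total recovered reads gave 653 and 893, no variance trend 280 and 144, voom 1799 and 1594, and no filter on low values 297 lower. Further YAP and TAZ targets called higher numbered 2 under that stricter filter and 3 by voom. Those called lower numbered 1 without the filter, 1 without the trend, 4 by voom and 1 whichever library was left out. Hippo components called higher numbered 6 by voom. Those called lower numbered 0 without the filter, 0 without the trend, 5 with scaling by total recovered reads, 4 after quantile normalisation, 8 by voom and 0 whichever library was left out. The log2 fold change of YAP1 ranged from -0.138 to 0.0449 when each library was left out and was above 0 without control replicate 2. The cause was not tested in any of these cases.

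Across 10440 genes same-numbered libraries did not deviate together (correlation of the replicate differences 0.03), and the labels tie no libraries by number, so they were not treated as pairs. Among the 10 members replicate 1 was the lower library in 9 for the controls and in 8 with TGF-β1. With the replicate block, 947 genes were higher and 397 lower, 7 members were lower and 1 higher (CCN2, adjusted p = 0.0297, limma).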
